A study of Homo sapiens with 2 samples.

Results

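Epithelial cells keep or lose their identity through the action of opposed sets of transcription factors, and 10 of these were followed here in an ovarian cancer cell line: 6 that drive epithelial-to-mesenchymal transition (EMT), SNAI1, SNAI2, ZEB1, ZEB2, TWIST1 and TWIST2, and 4 that maintain the epithelial state, ELF3, EHF, GRHL2 and OVOL1. They were taken by gene symbol, and all 10 had a row among the 26255 gene symbols of each deposited table. The cells were OVSAHO, an established line from a human high-grade serous ovarian carcinoma. In the culture that the submitters call OVSAHO-A2-siA4, SMARCA2 expression had been raised (genotype "SMARCA2 stable") and SMARCA4 knocked down. The culture it is set against, OVSAHO-Ctrl-siNC, was labelled wild type. Both were exposed to 25 µM carboplatin, a platinum drug that damages DNA, for 2 days, so no untreated state is available here. SMARCA2 and SMARCA4 are alternative ATPase subunits of the SWI/SNF chromatin-remodelling complex. Each of the A2-siA4 and Ctrl-siNC cultures gave 1 RNA-seq library, so no p-value or between-culture error exists for any value below, and an effect of the perturbation cannot be told apart from a difference between 2 cultures or clones. In bulk RNA, fewer cells with a transcript and less of it per cell cannot be told apart.

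SNAI1 and SNAI2 are zinc-finger proteins, ZEB1 and ZEB2 zinc-finger homeodomain proteins, and TWIST1 and TWIST2 basic helix-loop-helix proteins. The SNAI and ZEB proteins bind E-box sequences in the promoters of epithelial genes such as the cadherin CDH1 and repress them with the help of corepressors, and SMARCA4 itself has been described as a partner of ZEB1 in that repression. ELF3 and EHF are epithelium-specific ETS factors, GRHL2 is a grainyhead factor that activates junction genes, and OVOL1 is a zinc-finger factor that opposes EMT drivers. ZEB1 and factors of the GRHL and OVOL families are known to repress each other's genes.

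The EMT drivers did not move as 1 block. TWIST2 was higher and SNAI1 was lower in the A2-siA4 library, and both reached 1 FPKM in each library. Of the epithelial factors, ELF3 was lower and EHF was higher. EHF reached 1 FPKM in the A2-siA4 library only, so it could enter the comparison only as a gene that was higher there. Its call therefore does not show that the epithelial factors were split. Of all 11785 genes at 1 FPKM or more in a library, 7.85% were higher and 7.61% were lower by the same rule, 15.5% in all. TWIST1 and ZEB1 were about 3 times as high, but at levels so low that they stayed under the rule of size used to call a difference. SNAI2 was near the limit of detection, and ZEB2, GRHL2 and OVOL1 were listed at 0 in both libraries. Levels are in FPKM, fragments per kilobase of transcript and per 1000000 mapped fragments. The call of higher or lower needed a level of 1 FPKM in 1 library or both and a log2 ratio, A2-siA4 over Ctrl-siNC with 1 FPKM added to each value, of 1 or more or of -1 or less. This is a rule of size and not a test.

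Promoter sequence was at hand for 5 of the 10 factors, in 12 windows of 300 bases that run from 250 bases before to 50 after an annotated transcript start (RefSeq, GRCh38.p14). The windows of ELF3, of the first EHF start and of the ZEB1 start with most E-boxes are shown because ELF3 and EHF went opposite ways between the libraries and because ZEB1 is both a factor of this group and a binder of such letters. Each is written 5′ to 3′ on the strand of the gene, and capitals mark the E-box letters bound by SNAI and ZEB proteins, CACCTG or its reverse complement CAGGTG.

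ELF3, chr1:202010337-202010636, + strand: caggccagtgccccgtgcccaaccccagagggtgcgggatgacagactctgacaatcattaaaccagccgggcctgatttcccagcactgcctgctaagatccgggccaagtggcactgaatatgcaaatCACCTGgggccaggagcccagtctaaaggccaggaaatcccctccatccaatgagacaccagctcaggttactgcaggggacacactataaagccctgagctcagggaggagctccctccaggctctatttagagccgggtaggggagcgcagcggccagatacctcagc

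EHF, chr11:34624007-34624306, + strand: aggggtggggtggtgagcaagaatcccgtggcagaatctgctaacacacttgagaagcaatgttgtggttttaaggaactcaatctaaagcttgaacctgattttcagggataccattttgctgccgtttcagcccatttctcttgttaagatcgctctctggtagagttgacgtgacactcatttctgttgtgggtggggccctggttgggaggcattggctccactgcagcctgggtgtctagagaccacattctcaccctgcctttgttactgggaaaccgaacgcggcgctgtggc

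ZEB1, chr10:31318966-31319265, + strand: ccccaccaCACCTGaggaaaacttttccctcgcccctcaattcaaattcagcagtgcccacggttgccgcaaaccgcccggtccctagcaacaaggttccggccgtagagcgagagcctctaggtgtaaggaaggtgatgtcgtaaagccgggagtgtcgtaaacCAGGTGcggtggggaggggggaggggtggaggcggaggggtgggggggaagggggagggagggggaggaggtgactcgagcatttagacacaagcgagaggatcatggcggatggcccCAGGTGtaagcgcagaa

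The ELF3 window holds 1 such E-box, at 120 bases before the transcript start. The EHF window holds none, and neither does the window of the other EHF start or those of TWIST2 and ZEB2. ZEB1 has 7 annotated start windows, of which 2 hold a match, and the one shown holds 3. Among 34943 promoter windows of the same length, 20.6% hold at least 1. The letters CCGGAA or TTCCGG, the core bound by many ETS factors, are absent from the ELF3 and EHF windows and occur once in the ZEB1 window shown, against 17.2% of all windows. These matches describe letters only. The ZEB1 window shown overlaps by 220 bases the start window of ZEB1-AS1, a long non-coding RNA transcribed from the opposite strand.

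SNAI1 was the most abundant of the 10 factors in both libraries, at 22.5 FPKM in the A2-siA4 library and 57.0 FPKM in the Ctrl-siNC library. It was 2.53-fold lower in the A2-siA4 library (95% counting interval 2.21 to 2.91). About 296 fragments stood behind the A2-siA4 value and 767 behind the Ctrl-siNC value, which makes this the best-measured factor of the group. The interval is an exact binomial one on estimated fragment numbers and covers counting error alone. It says nothing of how far 2 cultures of the same kind would differ, and PCR copies make it too narrow.

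SNAI2, the paralog of SNAI1, was at 0.473 FPKM in the A2-siA4 library and 0.695 FPKM in the Ctrl-siNC library, from about 7.58 fragments in A2-siA4 and 11.4 in Ctrl-siNC cells. The ratio of A2-siA4 to Ctrl-siNC was 0.681 with an interval of 0.260 to 2.03, so a difference was not detectable at this depth.

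The TWIST genes lay on the other side. TWIST2 was at 5.58 FPKM in the A2-siA4 library and 1.28 FPKM in the Ctrl-siNC library, 4.36-fold higher (2.29 to 8.48) from about 53.8 fragments in A2-siA4 and 12.6 in Ctrl-siNC cells. TWIST1 was at 2.70 FPKM in A2-siA4 cells and 0.905 FPKM in Ctrl-siNC cells, 2.98-fold higher (1.51 to 6.31) from about 35.0 fragments in A2-siA4 and 12.0 in Ctrl-siNC cells. With the pseudocount the log2 ratio was 1.53 for TWIST2 and 0.96 for TWIST1, so only TWIST2 passed the rule, and TWIST1 missed it narrowly. The summed level of the pair was 8.28 FPKM in the A2-siA4 library and 2.18 FPKM in the Ctrl-siNC library.

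ZEB1 was at 1.23 FPKM in the A2-siA4 library and 0.363 FPKM in the Ctrl-siNC library, 3.40-fold higher (1.97 to 6.29). Its log2 ratio with the pseudocount was 0.71. The transcripts matched to ZEB1 run between 3217 and 6267 bases, and its fragment numbers, about 57.0 in A2-siA4 and 17.1 in Ctrl-siNC cells, rest on their median length. Transcripts of 4000 bases or more had a median log2 ratio of 0.21 over 2705 genes, against -0.14 over the 3765 genes of 300 to 2000 bases, so the ratio of ZEB1 stood in a class whose ratios were higher as a whole. It was 0.37 after trends of the ratio on length, GC content and level were subtracted. SOX4, RCOR1, TCF3, GSK3B, DSP, CDH2 and SMARCA2, whose levels are given below, stood in the same length class. So did SMARCA4 and ELF4, whose levels were lower in the A2-siA4 library. ZEB1-AS1 was at 1.12 FPKM in the A2-siA4 library and 2.36 FPKM in the Ctrl-siNC library, opposite in direction to ZEB1. That ratio of 0.475 (0.219 to 0.910) rested on about 13.3 fragments in A2-siA4 and 28.6 in Ctrl-siNC cells. It did not pass the rule of size. The library kit does not mark strand, so reads where such partners overlap cannot be assigned to one of them. ZEB2 was listed at 0 in both libraries, as was ZEB2-AS1.

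**Figure D1:**
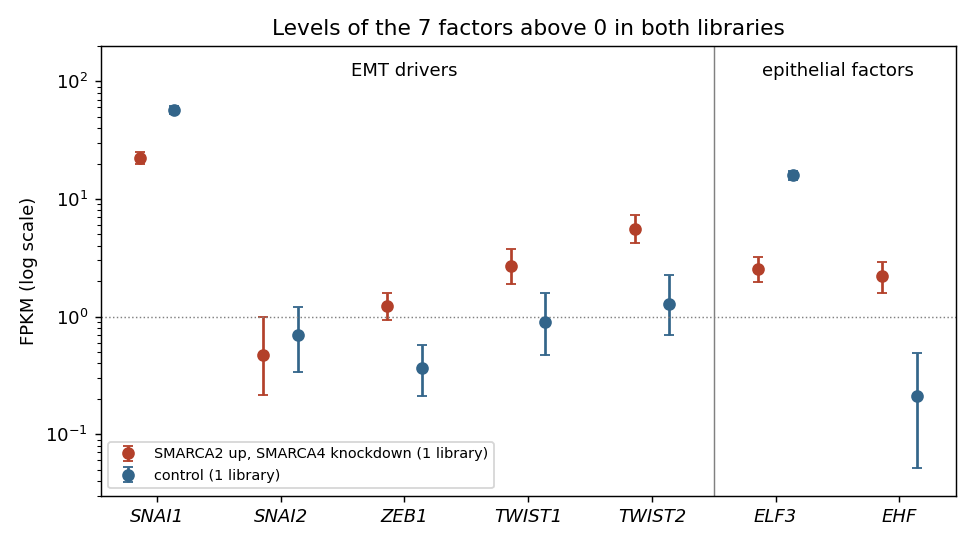
Level of each factor above 0 in both libraries, in FPKM on a log axis, with the A2-siA4 library in red to the left of the Ctrl-siNC library in blue. Bars are exact Poisson 95% intervals for counting error only, and the dotted line is 1 FPKM. SNAI1 and ELF3 sit lower in the A2-siA4 library, ZEB1, TWIST1, TWIST2 and EHF sit higher, and the bars of SNAI2 overlap.

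ELF3, an ETS factor of simple epithelia, had the largest decrease of the group. It was at 2.54 FPKM in the A2-siA4 library and 15.9 FPKM in the Ctrl-siNC library, 6.25-fold lower (4.82 to 8.21), from about 67.0 fragments in A2-siA4 and 428 in Ctrl-siNC cells. Its log2 ratio of -2.25 was the 61st lowest among the 11785 genes at 1 FPKM or more in a library. ELF3 carries a single E-box in the promoter window printed above.

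EHF, the closest relative of ELF3 in this group, went the other way, at 2.19 FPKM in the A2-siA4 library and 0.213 FPKM in the Ctrl-siNC library. The ratio was 10.3 (4.19 to 44.0) but rested on about 4.47 fragments in the Ctrl-siNC library, against 45.0 in the A2-siA4 library. With the pseudocount the log2 ratio was 1.40. Of the summed FPKM of the 4 epithelial factors, EHF made up 46.3% in the A2-siA4 library and 1.33% in the Ctrl-siNC library. ELF3 made up 53.7% in A2-siA4 cells and 98.7% in Ctrl-siNC cells. The summed level itself was 4.73 FPKM in the A2-siA4 library and 16.1 FPKM in the Ctrl-siNC library.

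GRHL2 and OVOL1 were listed at 0 in both libraries. An exact 0 in a table without counts can be a failed estimate, so no upper limit is given for ZEB2, GRHL2 and OVOL1.

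**Figure D2:**
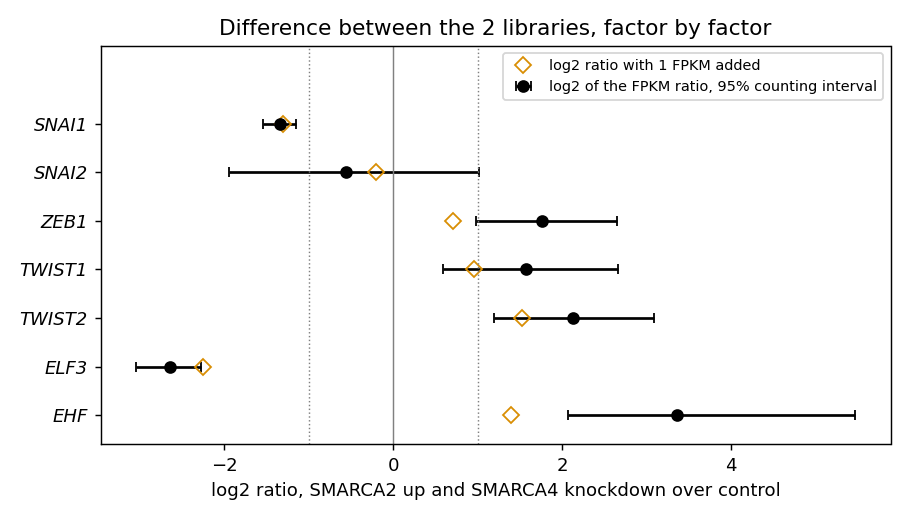
Difference between the libraries for the same 7 factors, on the log2 scale, A2-siA4 over Ctrl-siNC. Black points are ratios of the deposited FPKM with 95% counting intervals, open diamonds are ratios after 1 FPKM was added to each value, and dotted lines mark 2-fold. Adding 1 FPKM moved EHF and ZEB1 most.

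Counted over all 10 factors, 2 were higher, 2 were lower, 2 lay within 2-fold on the pseudocount scale and 4 did not reach 1 FPKM in either library. Of the 6 factors that reached it, 3 (ZEB1, TWIST1 and EHF) did so in the A2-siA4 library only, and such genes had to be higher there, so their counts and medians support nothing. Ratios near 0 are to be read against a median of -0.06 over all 11785 genes.

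The order of levels changed between the libraries. In the A2-siA4 library it ran SNAI1, TWIST2, TWIST1, ELF3, EHF, ZEB1 and SNAI2. The counting intervals of TWIST1, ELF3 and EHF overlapped one after the other, as did those of ZEB1 and SNAI2. In the Ctrl-siNC library it ran SNAI1, ELF3, TWIST2, TWIST1, SNAI2, ZEB1 and EHF, with clear gaps only below SNAI1 and below ELF3. SNAI1 made up 69.3% of the summed FPKM of the EMT drivers in the A2-siA4 library and 94.6% in the Ctrl-siNC library. Without SNAI1 the other drivers summed to 9.98 FPKM in A2-siA4 cells and 3.24 FPKM in Ctrl-siNC cells. With it, all drivers summed to 32.5 FPKM in A2-siA4 cells and 60.3 FPKM in Ctrl-siNC cells. The summed level of the drivers was thus lower in the A2-siA4 library with SNAI1 and higher without it.

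Of 12 other transcription factors that promote EMT, 7 reached 1 FPKM, 2 were higher and none lower, with a median log2 ratio of 0.93. Over all 11785 genes at that level, 7.85% were higher and 7.61% lower, which is the background for the counts of each list below. All 7 ratios were above 0, as were 5484 of the 11785 ratios over all genes at that level. Of the 7, GSC, ETS1 and TCF4 reached 1 FPKM in the A2-siA4 library only and so had to be higher there. HMGA2, an architectural chromatin protein, was at 8.75 FPKM in the A2-siA4 library and 1.17 FPKM in the Ctrl-siNC library, 7.46-fold higher (4.44 to 13.1). The homeobox factor GSC was at 3.43 FPKM in A2-siA4 cells and 0.447 FPKM in Ctrl-siNC cells, 7.66-fold higher (2.90 to 31.8). SOX4, at 9.51 FPKM in A2-siA4 cells and 4.30 FPKM in Ctrl-siNC cells, had a log2 ratio of 0.99. PRRX1, FOXC2 and FOXQ1 were listed at 0 in both.

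Of 13 other epithelial transcription factors, 4 reached 1 FPKM, 1 was lower and none higher, with a median of -0.42. By the same rule 7.61% of all genes at that level were lower and 7.85% higher. KLF5, a factor of proliferating epithelia, was at 6.60 FPKM in the A2-siA4 library and 3.97 FPKM in the Ctrl-siNC library, a log2 ratio of 0.61. OVOL2, the paralog of OVOL1, was at 1.005 FPKM in A2-siA4 cells and 2.34 FPKM in Ctrl-siNC cells, a log2 ratio of -0.73, and GRHL1, a paralog of GRHL2, was at 0.365 FPKM in A2-siA4 cells and 0.551 FPKM in Ctrl-siNC cells. GRHL3 was listed at 0 in both. The ETS relatives of ELF3 and EHF had no member past the rule among the 6 of 8 that reached 1 FPKM, with a median of -0.25. ETS2 was at 9.06 FPKM in the A2-siA4 library and 16.2 FPKM in the Ctrl-siNC library, and ELF4 at 7.04 FPKM in A2-siA4 cells and 9.30 FPKM in Ctrl-siNC cells.

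Of 12 corepressors through which SNAI and ZEB factors act, all reached 1 FPKM, 2 were higher and none lower, with a median of 0.29. The shares over all genes were 7.85% higher and 7.61% lower. RCOR1 reached 1 FPKM in the A2-siA4 library only and had to be higher there. CTBP2, a C-terminal binding protein that ZEB factors recruit, was at 18.4 FPKM in the A2-siA4 library and 4.61 FPKM in the Ctrl-siNC library, 3.99-fold higher (3.08 to 5.17). RCOR1, the scaffold that joins the demethylase KDM1A to histone deacetylases, was at 1.97 FPKM in A2-siA4 cells and 0.417 FPKM in Ctrl-siNC cells, 4.72-fold higher (2.92 to 7.97). KDM1A itself was at 47.9 FPKM in A2-siA4 cells and 40.3 FPKM in Ctrl-siNC cells, and HDAC1 at 95.8 FPKM in A2-siA4 cells and 117 FPKM in Ctrl-siNC cells. The 7 dimer partners and inhibitors of TWIST proteins stayed within 2-fold on the pseudocount scale, with a median of 0.57. Their most abundant members were the inhibitors ID1, at 654 FPKM in the A2-siA4 library and 472 FPKM in the Ctrl-siNC library, and ID3, at 414 FPKM in A2-siA4 cells and 278 FPKM in Ctrl-siNC cells. The TWIST partner TCF3 was at 6.90 FPKM in A2-siA4 cells and 3.14 FPKM in Ctrl-siNC cells, a log2 ratio of 0.93.

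Genes that control the turnover of SNAI, ZEB and TWIST proteins had 2 higher and none lower among the 10 of 12 that reached 1 FPKM, with a median of 0.53. Among all genes at that level 7.85% were higher and 7.61% lower. FBXW7, GSK3B and FBXL14 reached 1 FPKM in the A2-siA4 library only and so had to be higher there. FBXW7, a ubiquitin ligase substrate receptor, was at 2.41 FPKM in the A2-siA4 library and 0.131 FPKM in the Ctrl-siNC library, on about 4.11 fragments in the Ctrl-siNC library. FBXO11, which targets SNAI1 for degradation, was at 7.96 FPKM in A2-siA4 cells and 2.70 FPKM in Ctrl-siNC cells, 2.95-fold higher (2.31 to 3.76). The kinase GSK3B, which marks SNAI1 for degradation, was at 1.59 FPKM in A2-siA4 cells and 0.482 FPKM in Ctrl-siNC cells, a log2 ratio of 0.81. These are levels of RNA, and no protein was measured.

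Epithelial genes that SNAI and ZEB factors repress were split. All 16 reached 1 FPKM, 3 were higher and 3 were lower, with a median of -0.20. Over all genes 7.85% were higher and 7.61% lower. PKP3 and CRB3 reached 1 FPKM in the Ctrl-siNC library only and had to be lower in the A2-siA4 library, and INADL (now PATJ) reached it in the A2-siA4 library only. CDH1, the best-known of these targets, was at 3.52 FPKM in the A2-siA4 library and 3.40 FPKM in the Ctrl-siNC library, a ratio of 1.04 (0.785 to 1.36). The desmosomal DSP was at 11.4 FPKM in A2-siA4 cells and 3.10 FPKM in Ctrl-siNC cells, 3.67-fold higher (3.19 to 4.26), and the claudins CLDN1 and CLDN3 were 2.98-fold and 2.09-fold higher. The claudin CLDN4 was at 31.6 FPKM in the A2-siA4 library and 126 FPKM in the Ctrl-siNC library, 3.98-fold lower (3.59 to 4.42). The mucin MUC1 was 3.48-fold lower and the desmosomal plakophilin PKP3 4.49-fold lower.

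Of 11 genes reported as targets of GRHL2 or OVOL factors, 6 reached 1 FPKM, 3 were lower and none was higher, with a median of -0.69. The shares over all genes were 7.61% lower and 7.85% higher. CLDN4 was one of the 3 lower genes. PRSS8 reached 1 FPKM in the Ctrl-siNC library only and had to be lower in the A2-siA4 library. The matriptase inhibitor SPINT1 was at 3.02 FPKM in the A2-siA4 library and 16.1 FPKM in the Ctrl-siNC library, 5.32-fold lower (4.12 to 7.03), and the membrane protease PRSS8 was at 0.389 FPKM in A2-siA4 cells and 2.22 FPKM in Ctrl-siNC cells, from about 5.76 fragments in A2-siA4 and 33.6 in Ctrl-siNC cells. The splicing factor ESRP2 was at 4.28 FPKM in A2-siA4 cells and 2.83 FPKM in Ctrl-siNC cells. ESRP1, its paralog, was at 0.0676 FPKM in the A2-siA4 library and at 0 in the Ctrl-siNC library.

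Mesenchymal genes that follow EMT drivers had 3 higher and 1 lower among the 10 of 16 that reached 1 FPKM, with a median of 0.22. Among all genes at that level 7.85% were higher and 7.61% lower. ACTA2 and CDH2 reached 1 FPKM in the A2-siA4 library only and had to be higher there. The matrix protein SPARC was at 17.3 FPKM in the A2-siA4 library and 1.40 FPKM in the Ctrl-siNC library, 12.3-fold higher (9.15 to 17.3). The actin-binding TAGLN was 3.51-fold higher (3.15 to 3.90), and the smooth-muscle actin ACTA2 was at 2.45 FPKM in A2-siA4 cells and 0.284 FPKM in Ctrl-siNC cells. S100A4, a calcium-binding protein often used as a mesenchymal marker, was lower, at 1026 FPKM in the A2-siA4 library and 3124 FPKM in the Ctrl-siNC library, 3.04-fold (2.93 to 3.16). The mesenchymal cadherin CDH2 was at 1.33 FPKM in A2-siA4 cells and 0.363 FPKM in Ctrl-siNC cells, a log2 ratio of 0.77. Vimentin, VIM, was at 342 FPKM in A2-siA4 cells and 313 FPKM in Ctrl-siNC cells. The collagens COL1A2 and COL3A1 were listed at 0 in both.

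**Figure D3:**
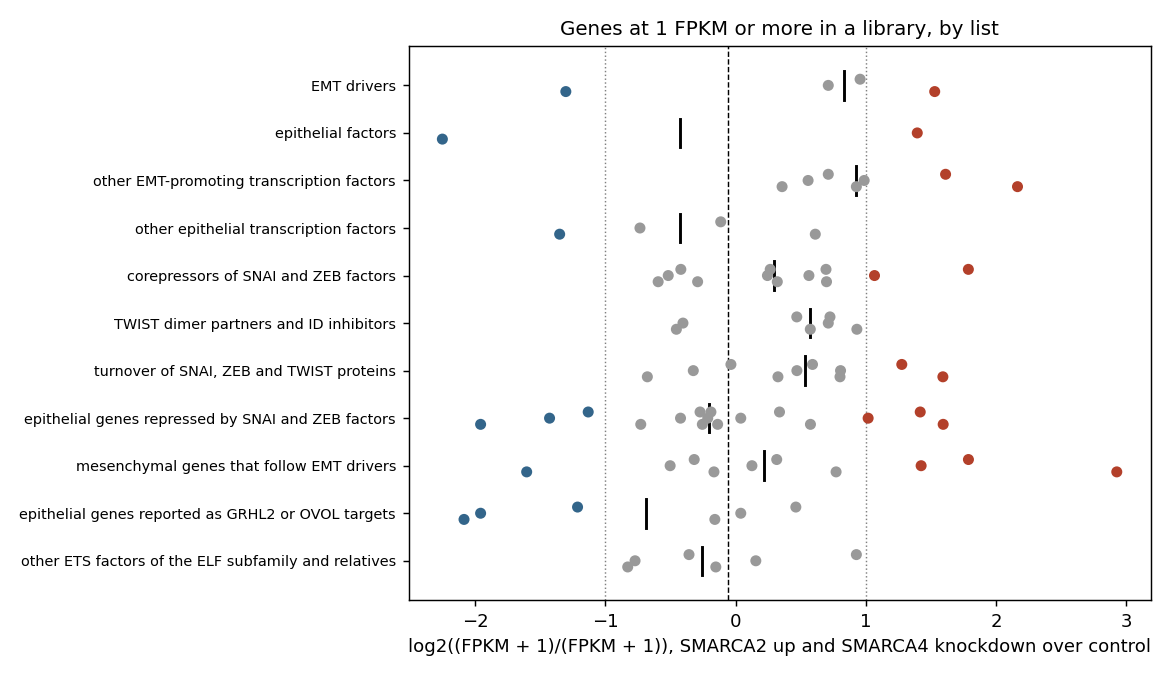
Log2 ratio with 1 FPKM added, A2-siA4 over Ctrl-siNC, for each gene at 1 FPKM or more in a library, by gene list. Red points are higher and blue points lower by the rule of size, black bars are list medians, the dashed line is the median of -0.06 over all such genes and dotted lines mark 2-fold. Epithelial genes repressed by SNAI and ZEB factors lie on both sides of 0.

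As a check of the labels, SMARCA2 was at 2.60 FPKM in the A2-siA4 library and 0.205 FPKM in the Ctrl-siNC library, and SMARCA4 at 4.49 FPKM in A2-siA4 cells and 27.9 FPKM in Ctrl-siNC cells, both in the labelled direction. About 8850000 fragments stood behind the A2-siA4 table and 9050000 behind the Ctrl-siNC table. Of 8 markers of serous carcinoma epithelium, 7 reached 1 FPKM, with KRT8 at 462 FPKM in the A2-siA4 library and 488 FPKM in the Ctrl-siNC library and PAX8 at 42.1 FPKM in A2-siA4 cells and 21.9 FPKM in Ctrl-siNC cells. Of these markers 1 was higher and 2 were lower. Over all genes at 1 FPKM or more in a library, 7.85% were higher and 7.61% lower. WT1 was at 5.52 FPKM in A2-siA4 cells and 1.53 FPKM in Ctrl-siNC cells. KRT7 was at 119 FPKM in A2-siA4 cells and 540 FPKM in Ctrl-siNC cells. KRT19 was at 0.356 FPKM in A2-siA4 cells and 3.04 FPKM in Ctrl-siNC cells. It reached 1 FPKM in the Ctrl-siNC library only and had to be lower in the A2-siA4 library. MUC16 was at 0 in A2-siA4 cells and 0.0608 FPKM in Ctrl-siNC cells. The 6 fibroblast markers summed to 0.0985 FPKM in the A2-siA4 library and 0.154 FPKM in the Ctrl-siNC library with COL1A2, COL3A1, PDGFRB, DCN and LUM listed at 0 in both. The 4 endothelial markers summed to 0.430 FPKM in A2-siA4 cells and 0.367 FPKM in Ctrl-siNC cells. Of the haematopoietic markers, PTPRC and CD3E were listed at 0 in both libraries. LYZ was at 0.0859 FPKM in A2-siA4 cells and 0.0840 FPKM in Ctrl-siNC cells, and CD14 at 0.170 FPKM in A2-siA4 cells and 0.167 FPKM in Ctrl-siNC cells.

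The size of the difference depended on how the ratio was computed. The log2 ratio of SNAI1 lay between -1.34 and -1.12 and that of ELF3 between -2.60 and -1.47 over the alternatives tried. TWIST2 ranged between 0.75 and 2.04, EHF between 0.46 and 2.87, TWIST1 between 0.38 and 1.48 and ZEB1 between 0.22 and 1.53. None of these 6 changed direction. Most alternatives could not have reversed one: a pseudocount or a filter keeps the sign of a ratio. Scaling and centring moved the ratios by much less than their size. Only the removal of trends was free to reverse a direction.

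**Figure D4:**
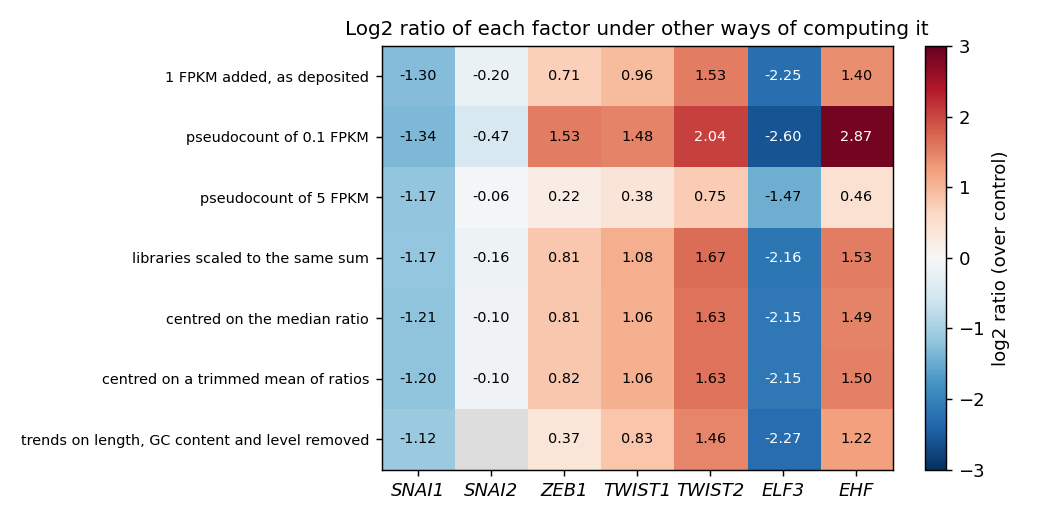
Log2 ratio of the 7 factors, A2-siA4 over Ctrl-siNC, under other pseudocounts, scalings and with trends removed (rows). Red is higher and blue is lower in the A2-siA4 library, and grey marks SNAI2, which was under 1 FPKM and had no trend-corrected value. SNAI1 and ELF3 stay below -1 in each row, while EHF, TWIST2, TWIST1 and ZEB1 shrink with 5 FPKM added.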

How the data were processed

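The members and the gene lists were chosen with earlier results of these data known. The deposited values are FPKM, 1 per gene symbol and library, made by the authors, per the file headers. Build hg19 and the tools Cuffdiff 2.2.1, TopHat2 2.1.1, SAMtools 0.1.18 and Bowtie2 2.2.8 come from the submitters' processing notes. Neither the annotation nor any scaling between libraries is stated in the sources used here. Per the labels' protocols, cDNA came from a SMART-Seq kit, which amplifies by PCR, with Nextera XT libraries. Of 1129 genes under 0.3 FPKM but above 0 in each library, 78.7% had ratios that matched whole fragments, 1 to 8 each, within 0.002 on the log2 scale. Depths and a length shortening of 200 bases were fitted so that the most values of 11323 genes with a single matched transcript lay within a window 2% wide at 1 fragment. The procedure was tested on simulated data. Lengths came from GENCODE transcripts matched to RefSeq, at their median per gene, for 93.1% of the genes at 1 FPKM or more. Fragment numbers are estimates, and intervals (Clopper-Pearson for ratios, exact Poisson for levels, 95%) cover counting error only. Genes named are the 10 factors, SMARCA2 and SMARCA4, and from each list up to 4 per direction past the rule, or the 2 most abundant where none passed. Other list genes were named after their values were seen. With 2 libraries no ranking by likeness of pattern was made. Python 3.11.15, pandas 2.3.3, NumPy 2.4.6 and SciPy 1.17.1 were used. A few list genes are not reported here.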

Additional observations from a re-analysis of the deposited data

How the results depend on the processing

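No paired analysis was possible because each group has 1 library, and none could be left out in turn. The cause of each change below was not tested, except where fewer genes pass a stricter rule. Against 2 higher and 2 lower factors, 4 were higher with a pseudocount of 0.1 FPKM or a 1.5-fold rule, 1 with 5 FPKM in a library or 1 FPKM in both, and 0 with a pseudocount of 5 FPKM or a 4-fold rule. The 4-fold rule left 1 lower factor, ELF3, and both SNAI1 and ELF3 stayed lower under each of the other settings. TWIST1 joined the higher factors, 3 in all, when the libraries were scaled to the same sum or centred.

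Of 111 other list genes, 12 were higher and 7 lower, but some of the 111 were under 1 FPKM in both libraries and could not be called. The counts were 19 and 11 with a pseudocount of 0.1 FPKM, 6 and 3 with 5 FPKM, 24 and 14 at 1.5-fold, and 2 and 1 at 4-fold. Of all 11785 genes at 1 FPKM or more in a library, 925 (7.85%) were higher and 897 (7.61%) lower. Those higher were 1630 with a pseudocount of 0.1 FPKM, 546 with 5 FPKM in a library, 557 with 1 FPKM in both and 575 with trends removed. Higher and lower were 219 and 380 with a pseudocount of 5 FPKM, 2253 and 2505 at 1.5-fold, and 71 and 84 at 4-fold. Of the genes past 2-fold 50.8% were higher, against 64.7% with a common sum, 62.9% centred on the median of -0.10 and 63.4% centred on the trimmed mean. The SMARCA2 log2 ratio of 1.58 became 3.15 and 0.55 with pseudocounts of 0.1 and 5 FPKM, and the SMARCA4 ratio of -2.40 became -2.61 and -1.79. Depth limits the Ctrl-siNC values of EHF, TWIST1, TWIST2 and ZEB1, at under 20 fragments each.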
